A study of Mus musculus with 9 samples.

Results

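The subunits of the mitochondrial respiratory chain and ATP synthase were followed in mouse CD4+ T cells before and after activation and with a drug that activates the glycolytic enzyme pyruvate kinase M2. The genes were taken by symbol: the protein-coding genes of the GENCODE M21 annotation named as subunits of complex I (Nduf genes), complex II (Sdha to Sdhd), complex III (Uqcr genes and Cyc1), complex IV (Cox4 to Cox8 genes), ATP synthase (Atp5 genes) and cytochrome c (Cycs), together with the 13 proteins encoded by the mitochondrial genome. The rule found 99 of the 47937 genes in the count table, 86 in the nucleus and 13 in the mitochondrion. Of the nuclear genes, 35 belong to complex I, 4 to complex II, 9 to complex III, 20 to complex IV (Ndufa4 and its paralog Ndufa4l2 counted there) and 17 to complex V, with 1 gene for cytochrome c. The mitochondrial genome supplies 7 proteins of complex I, 1 of complex III, 3 of complex IV and 2 of complex V. Atp5s entered by its symbol only; RefSeq lists it as Dmac2l.

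Complexes I to IV pass electrons from NADH and succinate to oxygen. Complexes I, III and IV pump protons, and complex V uses the proton gradient to make ATP. Complex II is built from nuclear genes alone, whereas complexes I, III, IV and V mix subunits made in the cytosol with subunits translated inside the mitochondrion. The mitochondrial mRNAs are cut from long transcripts of both strands, so their levels depend on processing and decay as well as on transcription. Naive T cells draw most of their ATP from this chain, and activated T cells expand their mitochondria while adding a large glycolytic flux.

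Splenic CD4+CD62L+ T cells from C57BL/6 mice, isolated with magnetic beads, were profiled by RNA-seq in 3 groups of 3 libraries, numbered 1, 4 and 5 in each group. The resting group is labelled as resting cells. The control and TEPP-46 groups were activated with anti-CD3 and anti-CD28 bound to the plate, after 15 min with the solvent DMSO or with TEPP-46, at 50 to 100 µM. The sources used here do not give the time of activation, whether the resting cells were cultured, or whether the libraries came from separate mice; each p-value therefore reflects the scatter among these libraries, which may be technical. Resting and TEPP-46 cells are each compared with the same 3 control libraries.

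Library totals ran from 2397304 to 5030643 counts. Levels are in CPM (the count divided by the TMM-scaled library size, times 1e+06). The 5 T cell markers summed to 3296 to 6174 CPM in resting, 2764 to 3633 CPM in control and 4700 to 5418 CPM in TEPP-46 libraries. Every TEPP-46 library thus lay above every control library. Markers of other cells also differed between the groups. The 6 B cell markers summed to 1994 to 2478 CPM in resting, 450.3 to 776 CPM in control and 1014 to 2361 CPM in TEPP-46 libraries. The 3 plasma cell markers ran from 749 to 3264, from 647 to 1049 and from 211 to 564 CPM, with Igha and Jchain near 0 in both activated groups. The 4 neutrophil markers summed to 99.8 to 146 CPM in resting cells, 0 in all control libraries and 0.825 to 132 CPM with TEPP-46. Mpo and Elane carried that sum, at means of 96.1 and 22.8 CPM in resting cells. S100a8 and S100a9 were near the floor, at 1.11 and 0.419 CPM in resting and 0 and 0.42 CPM in TEPP-46 cells. The 4 platelet markers summed to at most 4.91 CPM outside the TEPP-46 group but 16.5, 271 and 84.1 CPM within it. In bulk RNA, fewer cells of a type and less RNA per cell cannot be told apart. The part of these cells in the results was not tested.

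Detection differed sharply along the mitochondrial genome. Over the 9 libraries together, mt-Cytb had 75368 counts, mt-Co1 25626, mt-Nd1 16017, mt-Nd4 11404, mt-Nd5 6951, mt-Nd2 4894 and mt-Nd6 2926. The other 6 genes had almost none: 66 counts for mt-Atp6, 63 for mt-Nd3, 52 for mt-Co3, 20 for mt-Co2, 14 for mt-Atp8 and 7 for mt-Nd4l. These 6 code for ATP synthase subunits, for the cytochrome c oxidase subunits beside the catalytic core protein mt-Co1, and for small complex I subunits, and all lie side by side between mt-Co1 and mt-Nd4. The same stretch has an annotated copy in the nuclear genome, as a row of pseudogenes between chr1:24611535 and chr1:24616197 (GRCm38) that also takes in parts of mt-Co1 and mt-Nd4. Annotated copies of at least 97% identity covered 99.6% of mt-Co2, 99.9% of mt-Co3, 99.6% of mt-Atp6, 99.1% of mt-Nd3, 99.0% of mt-Nd4l and 21.1% of mt-Atp8. No such copy was found for mt-Nd1, mt-Nd2, mt-Nd5, mt-Nd6 or mt-Cytb. Only annotated transcripts were searched, so copies elsewhere in the genome, also of the rest of mt-Atp8, would be missed. The first 90 bases of mt-Co2, at chrM:7013-7102 on the plus strand, and of its copy Gm28661, at chr1:24615476-24615565 on the minus strand, are printed because a read within them would match both places.
mt-Co2: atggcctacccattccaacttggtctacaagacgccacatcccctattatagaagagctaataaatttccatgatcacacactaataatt
Gm28661: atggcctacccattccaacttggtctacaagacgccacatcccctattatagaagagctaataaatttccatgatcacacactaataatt
The 2 runs are identical, and no base differs over the 681 aligned bases of the gene. The copies had few counts themselves: Gm28661 had 30 counts in all, Gm28437 (the copy of mt-Co3) 59 and Gm10925 (mt-Atp6) 69. The sources used here do not say how reads with more than 1 place were counted, and the part of the copies in these low counts was not tested.

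Among the tested genes, mt-Nd4 and mt-Co1 also have copies. Gm28439 matches mt-Nd4 without a mismatch over 876 bases, or 63.6% of its transcript, so the counts of mt-Nd4 are uncertain. The counts of mt-Co1 are uncertain over its last 483 bases, from base 1063 to 1545, where Gm29216 on chromosome 1 differs at 1 base; Gm29216 itself had 23 counts. A second copy of mt-Co1, Gm13340 on chromosome 2, spans the gene, differs at 37 of 1545 bases and had 49 counts. A window of 90 bases of mt-Co1 and Gm13340, at chrM:5381-5470 on the plus strand and chr2:22589505-22589594 on the minus strand, shows the spacing of the differences, which are in capitals.
mt-Co1: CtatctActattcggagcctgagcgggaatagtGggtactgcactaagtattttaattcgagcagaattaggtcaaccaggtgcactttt
Gm13340: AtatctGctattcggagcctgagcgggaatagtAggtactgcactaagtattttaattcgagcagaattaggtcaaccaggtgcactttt
Counted from the first base of mt-Co1, the 3 differences in this window are C54A, A60G and G87A.

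**Figure D1:**
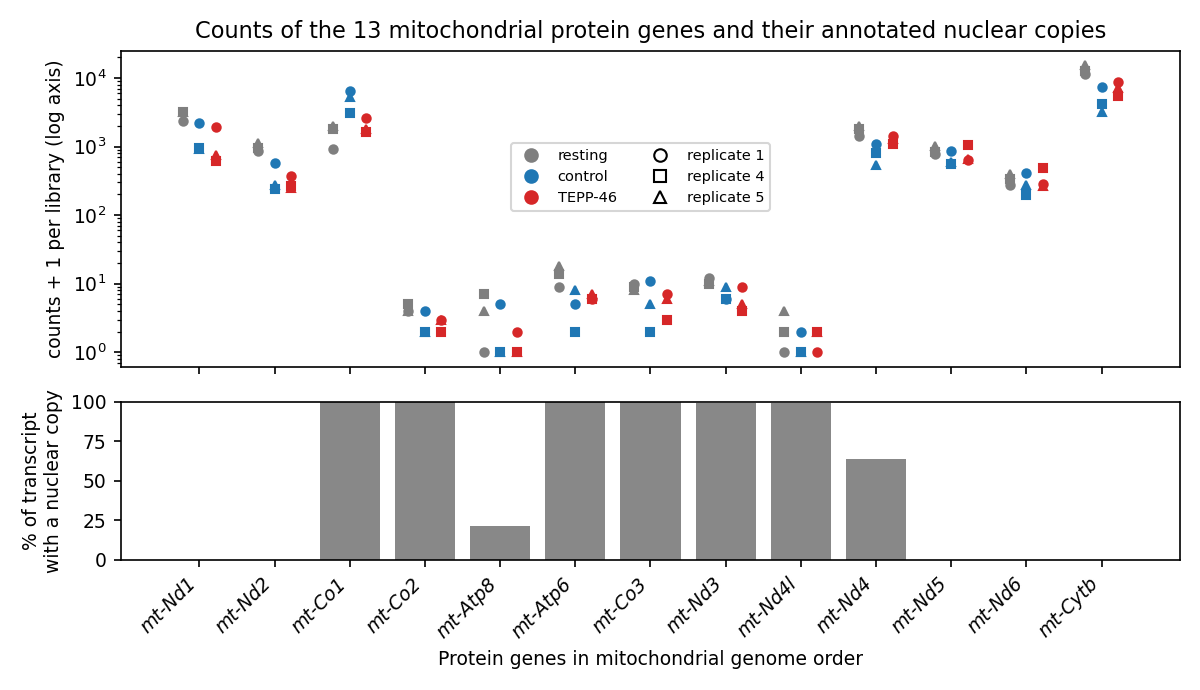
Counts of the 13 mitochondrial protein genes in each library (upper axis, counts + 1, log scale; color for group, shape for replicate number) above the percentage of each transcript covered by an annotated nuclear copy of at least 97% identity (bars). The 6 genes from mt-Co2 to mt-Nd4l, in genome order, have at most 17 counts in any library, while mt-Co1 on one side and mt-Nd4 on the other have at least 539.

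After the filter on low counts, 12536 genes were tested, among them 79 of the 86 nuclear and 7 of the 13 mitochondrial members. The 7 untested nuclear members were the tissue-restricted isoforms Cox4i2, Cox6a2, Cox7a1, Cox7b2, Cox8b, Cox8c and Ndufa4l2. Cox7b2 and Cox8c had no count in any library, which allows up to 3 counts by counting error alone. Over the unscaled library totals, 3 counts are 0.596 to 1.25 CPM. Per kb of exon, the most abundant mitochondrial messenger was mt-Cytb, with means of 2620 CPM per kb in resting, 1050 in control and 2020 in TEPP-46 cells. By the mean over the 3 groups, the most abundant nuclear members per kb in complexes I to V were Cox8a in complex IV (158, 281 and 224 CPM per kb), Atp5a1 in complex V (176, 175 and 159), Uqcr10 in complex III (134, 203 and 119), Sdha in complex II (139, 112 and 103) and Ndufa2 in complex I (107, 125 and 97.5). Cycs was far lower per kb, at 13.7, 21.5 and 19.1.

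Single mitochondrial messengers differed in opposite directions between resting and control cells, and a few nuclear ones were higher in control. In control against resting cells, mt-Co1 rose while mt-Cytb, mt-Nd2 and mt-Nd4 fell, so 1 of 7 mitochondrial members was called higher and 3 lower. Among nuclear members 6 of 79 were called higher (7.59%) and none lower at an adjusted p under 0.05 (edgeR's quasi-likelihood test, Benjamini-Hochberg over all genes tested). Of all genes tested, 15.5% were called higher and 15.8% lower in that comparison. At an unadjusted p under 0.05, 11 nuclear members passed, and DESeq2 called 8.

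mt-Co1 encodes the catalytic subunit of cytochrome c oxidase. Its level in replicates 1, 4 and 5 was 184, 477 and 434 CPM in resting cells, 1582, 742 and 1347 in control cells and 716, 675 and 586 with TEPP-46. Every control library lay above every resting and every TEPP-46 library, and the TEPP-46 libraries lay above the resting ones. The log2 difference of control against resting was 1.75 ± 0.38 (SE, n = 3 libraries a group; adjusted p = 0.00695, edgeR). TEPP-46 against control was -0.89 ± 0.37 with an adjusted p of 0.120, and TEPP-46 against resting 0.85 ± 0.37 with an adjusted p of 0.174, neither past the threshold. The rise from resting to control was called under all 19 other settings run.

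mt-Cytb, the only mitochondrially encoded subunit of complex III, went the other way. Resting libraries held 2325, 3329 and 3321 CPM, control libraries 1817, 998 and 791, and TEPP-46 libraries 2372, 2250 and 2317. The control libraries were the lowest 3 of the 9, and the TEPP-46 libraries lay close to each other near the lowest resting library, which 1 of the 3 exceeded. The log2 difference of control against resting was -1.32 ± 0.31 (adjusted p = 0.0106, edgeR), and that of TEPP-46 against control 0.94 ± 0.31 (adjusted p = 0.0624), which missed the threshold although the libraries did not overlap. Without control replicate 4 or without control replicate 5 the control against resting call was lost, with an adjusted p of at most 0.0526.

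The complex I subunits mt-Nd1, mt-Nd2, mt-Nd4, mt-Nd5 and mt-Nd6 form the membrane arm that pumps protons. For mt-Nd4 the resting libraries held 290.1, 469 and 434 CPM, the control libraries 265, 195 and 136, and the TEPP-46 libraries 388, 449.5 and 411. All control values were below all others, and the TEPP-46 and resting ranges overlapped. From resting to control it fell, with a log2 difference of -1.002 ± 0.274 (adjusted p = 0.0198), and was 1.07 ± 0.27 higher with TEPP-46 than in control (adjusted p = 0.0283, edgeR). The first call was lost without resting replicate 4 or 5 or control replicate 4 or 5 (adjusted p up to 0.0862), and the second without replicate 4 or 5 of either group and under a replicate block (up to 0.117). For mt-Nd2 the values were 172, 254 and 239.5 CPM in resting, 140.3, 57.4 and 68.3 in control and 102, 112 and 81.2 in TEPP-46 cells. Both activated groups lay below the resting group and overlapped each other. It fell by 1.32 ± 0.33 on the log2 scale in control (adjusted p = 0.0135) and by 1.17 ± 0.33 with TEPP-46 (adjusted p = 0.0495), against resting cells. The first call was lost without control replicate 4 or 5, with an adjusted p up to 0.0651, and the second held under 6 of 19 other settings and was lost without any 1 library other than control replicate 1 (up to 0.154).

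The remaining complex I messengers did not pass the test. mt-Nd1 had group means of 663 CPM in resting, 335 in control and 342 in TEPP-46 cells, with a log2 difference of -0.99 ± 0.42 in control against resting (adjusted p = 0.0965). Control replicate 1, at 542 CPM, lay within the resting range, whereas the other two control libraries held 229.5 and 233 CPM. mt-Nd5 differed by -0.27 ± 0.34 and mt-Nd6, the only protein gene on the opposite strand, by -0.07 ± 0.41. TEPP-46 replicate 4 stood above every other library for both, at 444.1 CPM for mt-Nd5 and 207 CPM for mt-Nd6. The 2 genes overlap by 14 bases on opposite strands, and the sources used here do not say whether counting used strand.

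**Figure D2:**
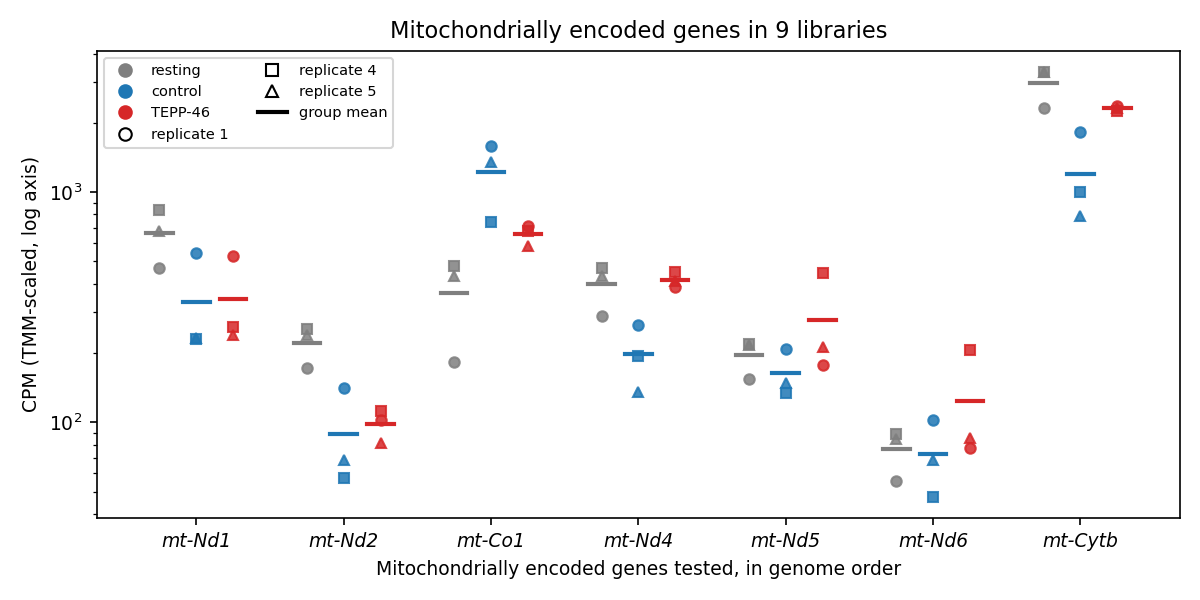
Level of the 7 tested mitochondrial genes in CPM (log axis), in genome order, with 1 point per library (color for group, shape for replicate number) and the group mean as a bar. For mt-Co1 the control points are the highest, at 742 to 1582 CPM, and for mt-Cytb they are the lowest, at 791 to 1817 CPM.

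The ratio of mt-Co1 to mt-Cytb counts within a library, which needs no scaling between libraries, set the groups apart. It was 0.0789, 0.143 and 0.131 in resting libraries, 0.871, 0.743 and 1.70 in control libraries and 0.302, 0.300 and 0.253 in TEPP-46 libraries. The 3 ranges did not overlap, with TEPP-46 between resting and control. The means were 0.118 ± 0.034 (SD, n = 3), 1.11 ± 0.52 and 0.285 ± 0.028. Against each of the 6 other tested mitochondrial genes in turn, the mt-Co1 ratio was higher in every control library than in every resting library. TEPP-46 libraries lay between the 2 groups for 4 of the 6; for mt-Nd5 and mt-Nd6, replicate 4 fell inside the resting range or below it. mt-Co1 made up 5.02% to 8.38% of all mitochondrial subunit counts in resting, 30.9% to 48.1% in control and 14.9% to 16.4% in TEPP-46 libraries. These ratios were chosen after the values were seen and carry no test.

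Summed over each genome, mitochondrial counts were 0.466, 0.607 and 0.623 of the nuclear counts in resting libraries, 0.482, 0.239 and 0.281 in control and 0.359, 0.795 and 0.509 in TEPP-46 libraries. Control replicate 1 lay inside the resting range and the TEPP-46 libraries spread from 0.359, below all resting libraries, to 0.795, the highest value of the 9. The mean log2 ratio was lower by 0.82 in control than in resting cells, a log2 difference of -0.82 against a replicate SD of 0.41. It was 0.72 higher in TEPP-46 than in control cells (SD 0.55) and differed by -0.09 between TEPP-46 and resting cells (SD 0.44). Without mt-Co1 the 3 differences were -1.40, 1.17 and -0.23. Without the most abundant member of each genome, mt-Cytb on the mitochondrial side, they were -0.10, 0.21 and 0.10, so the last turned sign.

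**Figure D3:**
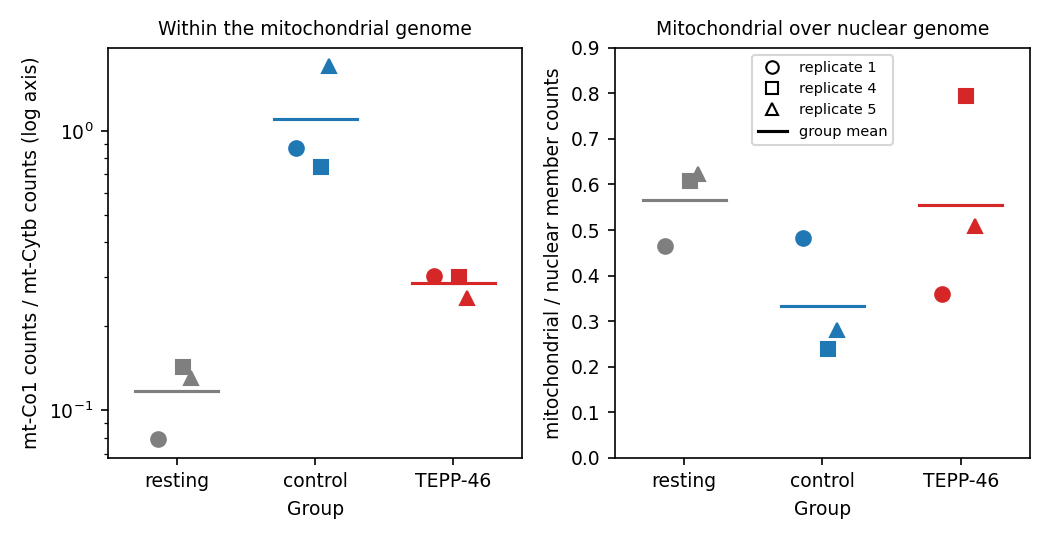
Left, mt-Co1 counts over mt-Cytb counts in each library (log axis); right, all mitochondrial over all nuclear subunit counts (linear axis from 0), with shapes for replicate numbers and a bar for the group mean. The groups are separate on the left, at 0.0789 to 0.143, 0.743 to 1.70 and 0.253 to 0.302, and overlap on the right.

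Between resting and control cells, the median log2 difference of the 79 tested nuclear members was 0.22, beside -0.04 for all genes tested, and 55 were positive and 24 negative. The control and resting libraries did not overlap for 41 of them (51.9%), of which 35 were higher and 6 lower in control. Over all genes tested the share was 59.2%, with 29.2% higher and 30% lower. The medians were 0.25 for complex I, 0.22 for complex II, 0.25 for complex III, 0.14 for complex IV and 0.14 for complex V.

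In complex I, 2 of 35 members were called higher, both of the NADH-binding module. Beside this count and those of the other complexes below stands the 15.5% of all genes tested that were called higher. Ndufv3 held 77.5, 99.6 and 115 CPM in resting, 179, 217 and 198 in control and 197, 113 and 111 in TEPP-46 libraries. Control was above resting without overlap, and TEPP-46 replicate 1 was as high as control while replicates 4 and 5 were near resting. The control against resting difference was 1.02 ± 0.26 on the log2 scale (adjusted p = 0.0150, edgeR), a call lost without resting replicate 4 or control replicate 4 or 5 (adjusted p up to 0.0583). Ndufv2, which carries an iron-sulfur cluster, rose from a mean of 107 to 185 CPM, by 0.79 ± 0.26 (adjusted p = 0.0394), and held 161, 81.9 and 103 CPM with TEPP-46. Its call was lost under a replicate block, without any 1 of the 6 libraries compared or without TEPP-46 replicate 5, where the adjusted p reached 0.116 at most. Ndufv1, the flavin-binding subunit of the same module, did not pass, at 0.20 ± 0.19 (adjusted p = 0.447). The lowest complex I value belonged to Ndufa11, a membrane-arm subunit, at -0.59 ± 0.27 (adjusted p = 0.117). None of the 4 complex II genes passed; Sdha, the flavoprotein that oxidizes succinate, held 550 to 602 CPM in resting, 439.5 to 492 in control and 356 to 466 in TEPP-46 libraries.

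In complex III, 1 of 9 members rose. Cyc1, the cytochrome that passes electrons on to cytochrome c, held 111, 126 and 139.8 CPM in resting, 234, 197 and 186 in control and 162.5, 113 and 89.9 in TEPP-46 libraries. Control exceeded both other groups without overlap. Its log2 difference was 0.71 ± 0.24 in control against resting (adjusted p = 0.0450) and -0.76 ± 0.24 in TEPP-46 against control (adjusted p = 0.0552, not past the threshold). The first call held under 10 of 19 other settings. It was lost under a replicate block, with every gene tested, and without any 1 of the 6 libraries compared (adjusted p up to 0.151). Its carrier partner Cycs, also a trigger of apoptosis when released, was higher in all control than in all resting libraries, 67.6 to 77.5 against 43.5 to 50.7 CPM, without passing the test (0.65 ± 0.25, adjusted p = 0.0709). Copies of at least 97% identity cover 34.5% of the Cycs transcript.

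In complex IV, 2 of 13 tested members rose. Cox6b2, known as the testis form of the subunit that bridges the dimer, had 0, 3 and 1 counts in resting libraries, 9, 37 and 36 in control and 32, 9 and 7 in TEPP-46 libraries. All activated libraries exceeded all resting ones, at mean levels of 0.336, 6.72 and 4.95 CPM. Its log2 difference was 4.31 ± 0.97 in control against resting (adjusted p = 0.00837) and 3.89 ± 0.99 in TEPP-46 against resting (adjusted p = 0.0344, edgeR), sizes that rest on 4 resting counts. Cox6b2 passed the filter on low counts only through activated libraries, so a call against resting cells could only be upward. With only the 2 groups fitted, or with a minimum count of 50, it did not pass the filter in either comparison. The first call held under all 17 other settings in which the gene was tested, and the second under 8 of 17. The second was lost without any 1 resting library, control replicate 4 or 5 or TEPP-46 replicate 1. There the adjusted p reached 0.123 at most. The general form Cox6b1 held 57.5, 87.4 and 75.3 CPM in resting, 51.8, 66.0 and 57.7 in control and 127, 47.1 and 69.2 in TEPP-46 libraries, so the groups overlapped (-0.33 ± 0.33, adjusted p = 0.482). Per kb of exon, Cox6b1 stood at 104, 82.6 and 115 CPM and Cox6b2 at 0.303, 6.07 and 4.47 CPM in resting, control and TEPP-46 cells, so the general form was the more abundant in each group. Cox5a, a structural subunit, rose from a mean of 104 to 198 CPM, by 0.93 ± 0.32 (adjusted p = 0.0495). The call was lost under a replicate block, without any 1 of the 6 libraries compared or without TEPP-46 replicate 5, where the adjusted p reached 0.135 at most. Cox5a overlaps the non-coding gene Gm26631 on the opposite strand over 1140 bases, so its counts are uncertain without knowledge of strand.

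No general form of the other paired isoforms passed the test between control and resting cells. Cox4i1 held 276 to 334 CPM in control against 259.6 to 301 in resting libraries (adjusted p = 0.803), Cox7a2 50.5 to 64.8 against 42.8 to 50.2 (adjusted p = 0.489), Cox6a1 149 to 159 against 101 to 177.5 (adjusted p = 0.872) and Cox8a 169 to 183 against 68.2 to 126.5 (adjusted p = 0.0741). Their restricted counterparts, too low to test, summed over 3 libraries to 4 resting, 15 control and 0 TEPP-46 counts for Cox4i2, to 3, 21 and 1 for Cox6a2 and to 1, 13 and 3 for Cox7a1. The control sum was the highest of the 3 for each gene; 13 of the 21 control counts of Cox6a2 came from replicate 1, and control replicate 4 had 2 counts, as did resting replicate 1. Cox8b had 3, 0 and 0 counts and Ndufa4l2 2, 2 and 1, and Ndufa4 itself did not pass the test (-0.16 ± 0.40, adjusted p = 0.783).

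In complex V, 1 of 17 members rose, and it was the gene that entered by symbol only. Atp5s held 8.25, 7.13 and 6.27 CPM in resting, 17.2, 14.6 and 19.4 in control and 4.67, 6.72 and 8.73 in TEPP-46 libraries. Control lay above both other groups, which overlapped. It was 1.24 ± 0.34 higher in control than in resting cells (adjusted p = 0.0201) and fell by 1.35 ± 0.35 with TEPP-46 against control (adjusted p = 0.0286, edgeR). The first call was lost without resting replicate 4 or 5 or control replicate 1 or 5 (adjusted p up to 0.0868), and the second without any 1 control library and under a replicate block (up to 0.116). Of the catalytic core, Atp5a1 differed by -0.01 ± 0.26 and Atp5b by 0.24 ± 0.33 between control and resting cells. The 3 genes for the proton-carrying c ring differed in sign without passing: Atp5g1 -0.04 ± 0.25, Atp5g2 0.62 ± 0.36 and Atp5g3 -0.10 ± 0.30.

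**Figure D4:**
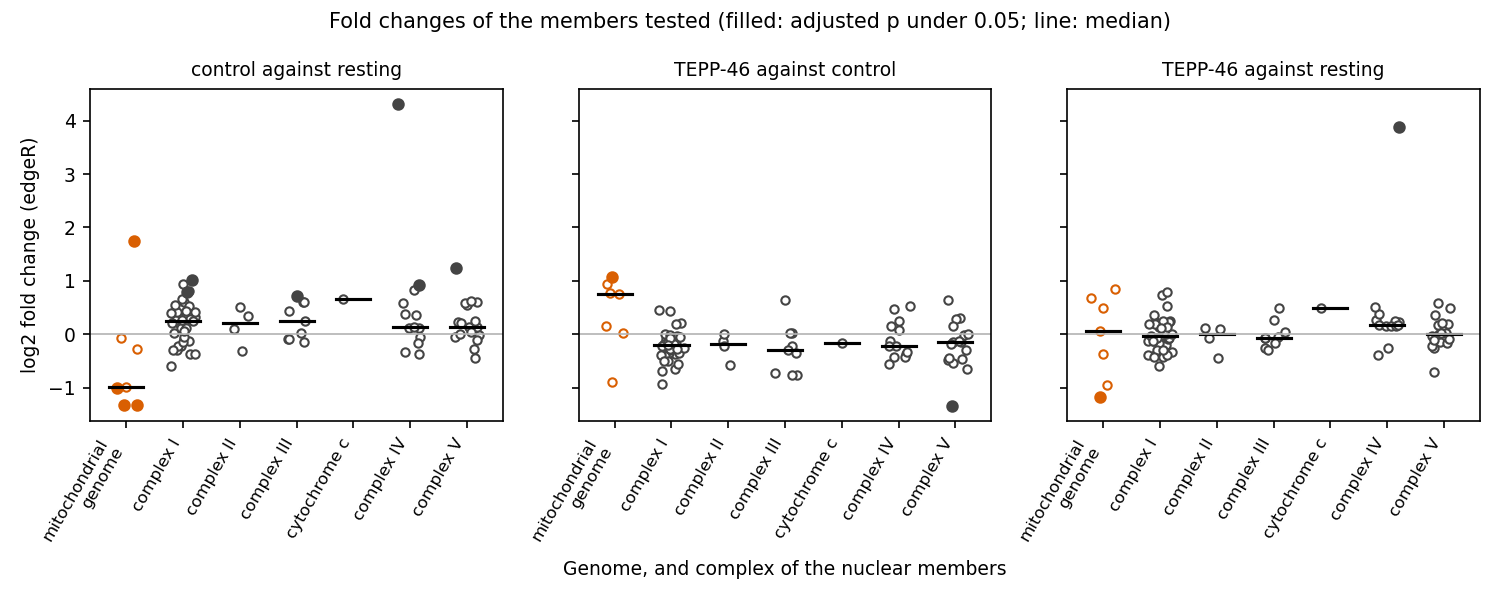
Log2 fold change of every tested member in the 3 comparisons, with the mitochondrial genome first and the nuclear members by complex (filled points: adjusted p under 0.05; bars: medians). From resting to control, the mitochondrial points spread from -1.32 to 1.75 around a median of -0.99 and the nuclear medians lie between 0.14 and 0.65.

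In TEPP-46 against control cells, 1 nuclear and 1 mitochondrial member were called. The nuclear one was Atp5s, lower with TEPP-46, and the mitochondrial one was mt-Nd4, higher with TEPP-46, both described above. Over all genes tested, 9.72% were called higher and 6.43% lower, against 0% and 1.27% of the 79 nuclear members. Of the 7 mitochondrial members tested, 14.3% were called higher and 0% lower. The unadjusted p was under 0.05 for 8 nuclear members, and DESeq2 called 4. The median log2 difference of the nuclear members was -0.19, beside 0.04 for all genes, and 60 of 79 were negative. The libraries did not overlap for 8 nuclear members (1 higher, 7 lower) and 3 mitochondrial ones, beside 39.7% of all genes (19.7% higher, 20% lower). The median was -0.19 for complex I, -0.18 for complex II, -0.29 for complex III, -0.22 for complex IV and -0.14 for complex V. Ndufa12, an accessory subunit of complex I, came nearest in that complex, at -0.93 ± 0.31 (adjusted p = 0.0616), and Uqcrh had the highest nuclear value, at 0.64 ± 0.39 (adjusted p = 0.266).

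The 3 TEPP-46 libraries differed widely from each other in their nuclear members. Summed over all 86, these held 12180, 5536 and 7732 CPM in replicates 1, 4 and 5, against 7850, 9374 and 8693 in resting and 9682, 10080 and 9967 in control libraries. The highest and the lowest library of the study were thus both treated with TEPP-46. The summed level of the 13 mitochondrial genes was close in the same 3 libraries, at 4367, 4402 and 3938 CPM, and wider in the resting (3656, 5688 and 5418) and control groups (4662, 2405 and 2797). The sum of 83 ribosomal protein genes followed the same order in the TEPP-46 libraries, at 35640, 8551 and 17620 CPM. The nuclear-retained RNA Malat1 was at 2532, 12290 and 12820 CPM there and at 2067 to 8385 CPM in the other 6 libraries, and replicate 4, with the lowest nuclear sum, also had the lowest total count and the most platelet marker RNA. The part of these differences in the results was not tested.

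**Figure D5:**
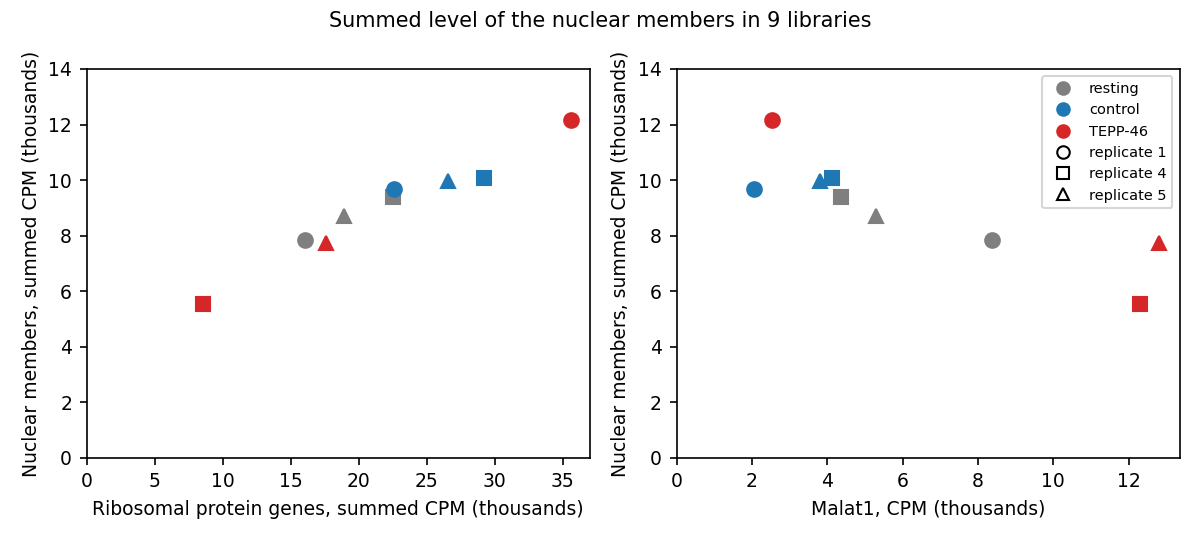
Summed CPM of the 86 nuclear members (vertical) against the summed CPM of 83 ribosomal protein genes (left) and the CPM of Malat1 (right), 1 point per library, with color for group and shape for replicate number. The TEPP-46 libraries take both ends of the vertical axis, from 5536 to 12180 CPM, while the 3 control libraries lie between 9682 and 10080 CPM.

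The number of nuclear members called moved with these libraries. Without TEPP-46 replicate 1, 28 of 79 nuclear members were called lower and none higher in TEPP-46 against control, with a median of -0.63. In that fit 4407 genes were called in all, 51.6% of them higher, beside 2025 in the main fit, 60.2% of them higher. Without TEPP-46 replicate 4, 3 nuclear members were called and the median was 0.02, while 1776 genes were called in all, 58.8% of them higher. The median of the set thus changed sign with the library left out.

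TEPP-46 and resting cells differed in 2 members. Cox6b2 was called higher and mt-Nd2 lower, so 1.27% of the 79 nuclear members were called higher and none lower, where 6.37% and 3.92% of all genes were. Of the nuclear members 4 had an unadjusted p under 0.05, and DESeq2 called 1. The nuclear median was 0.01, beside 0.02 for all genes, and turned to -0.02 when total counts were the only scaling. Libraries did not overlap for 5 nuclear members, or 6.33%, and for 2 mitochondrial ones, beside 26.8% of all genes (12.6% higher, 14.1% lower). Atp5g1 had the lowest nuclear value, at -0.70 ± 0.25 (adjusted p = 0.105). Without TEPP-46 replicate 1, 5 nuclear members were called lower and none higher, with a median of -0.34. Over all genes 1897 were then called, 57% of them higher, beside 1289 in the main fit, 61.9% of them higher. Without TEPP-46 replicate 4, 4 nuclear members were called higher and none lower, with a median of 0.28, while 1639 genes were called in all, 63.6% of them higher.

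Genes that build or regulate the chain were followed in lists named by function. Of the assembly factors, 1 of 15 for complex I, 0 of 4 for complex II, 0 of 6 for complex III, 2 of 20 for complex IV and 1 of 4 for complex V were called higher in control than in resting cells, and 0, 0, 1, 2 and 0 lower. Over the 49 listed genes together that is 8.16% higher and 6.12% lower, beside 15.5% and 15.8% of all genes tested. The complex V call was Atpif1, an inhibitor counted in that list, and Atpaf1, Atpaf2 and Tmem70 were not called in that comparison. Those called higher included Cox17, which delivers copper to cytochrome c oxidase. Its mean was 23.6 CPM in resting, 65.4 in control and 30.8 in TEPP-46 cells. It rose by 1.46 ± 0.23 on activation (adjusted p = 0.00169) and fell by 1.09 ± 0.23 with TEPP-46 against control (adjusted p = 0.0140, edgeR). Sco1, which hands copper on to the enzyme, rose by 1.73 ± 0.47 (adjusted p = 0.0185). Atpif1, the protein that inhibits reverse action of ATP synthase, had means of 37.0, 131 and 59.8 CPM. It rose by 1.83 ± 0.28 (adjusted p = 0.00157) and fell by 1.13 ± 0.28 with TEPP-46 (adjusted p = 0.0241). Ndufaf6, a complex I assembly factor, rose by 1.67 ± 0.36 (adjusted p = 0.00676) and fell by 1.77 ± 0.37 with TEPP-46 (adjusted p = 0.0129). The complex III factor Uqcc3 took the reverse course, with means of 36.0, 20.1 and 44.6 CPM, lower in control than in resting cells by a log2 difference of -0.84 ± 0.29 (adjusted p = 0.0486) and 1.16 ± 0.29 higher with TEPP-46 (adjusted p = 0.0264). Those 2 comparisons share the control libraries. In TEPP-46 against control, 6.12% of the 49 assembly factors were called lower and 2.04% higher, beside 6.43% and 9.72% of all genes tested. In TEPP-46 against resting, 2.04% were called lower (Ndufaf4) and 0% higher, beside 3.92% and 6.37%. The rises of Cox17, Atpif1 and Ndufaf6 from resting to control were called under all 19 other settings. Their TEPP-46 calls were lost without control replicate 1 or 5 or TEPP-46 replicate 5, those of Atpif1 and Ndufaf6 also without control replicate 4 and that of Atpif1 also without TEPP-46 replicate 4. The highest adjusted p was 0.0687 for Cox17, 0.096 for Atpif1 and 0.0636 for Ndufaf6. The call of Sco1 was lost without resting replicate 4 or 5 or control replicate 1 or 4 (up to 0.0731). For Uqcc3 the first call was lost without any 1 of the 6 libraries compared or TEPP-46 replicate 5 (up to 0.177), and the second without any 1 control library or TEPP-46 replicate 5 (up to 0.111). The first was also lost under a replicate block, with DESeq2's size factors, with total counts as the only scaling and with every gene tested. The second was also lost with only the 2 groups fitted.

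Of 26 tested genes for replicating and transcribing mitochondrial DNA and for processing or degrading its RNA, 4 were called lower (15.4%) and none higher in control than in resting cells, with a list median of -0.21. Among all genes tested, 15.8% were called lower and 15.5% higher. The DNA polymerase gene Polg fell by 0.95 ± 0.22 (adjusted p = 0.00893), the mRNA-stabilizing factor Lrpprc by 0.61 ± 0.18 (adjusted p = 0.0262), the termination factor family member Mterf3 by 0.84 ± 0.23 (adjusted p = 0.0198) and the RNA polymerase gene Polrmt by 0.80 ± 0.24 (adjusted p = 0.0310). Tfam, which packages the genome, did not pass (-0.55 ± 0.31, adjusted p = 0.207). The call of Polg held under all 19 other settings. That of Lrpprc was lost without any 1 control library and without resting replicate 4 or 5 (adjusted p up to 0.142). That of Mterf3 was lost without resting replicate 1 or 4 or control replicate 4 or 5 (up to 0.09), and that of Polrmt without any 1 of the 6 libraries compared (up to 0.126). The calls of Lrpprc, Mterf3 and Polrmt were also lost with every gene tested. Those of Lrpprc and Polrmt were lost with total counts as the only scaling and under a replicate block. None of the 26 was called between TEPP-46 and control, with 2 at an unadjusted p under 0.05. In TEPP-46 against resting cells, 3 of the 26 (11.5%) were called lower and none higher, beside 3.92% and 6.37% of all genes. Among them were Polg, at -0.85 ± 0.22 (adjusted p = 0.0362, edgeR), and Lrpprc, at -0.83 ± 0.18 (adjusted p = 0.0197). These calls held under 8 and 14 of 19 other settings. Of 13 genes for coenzyme Q, the carrier between complexes, 2 rose and 1 fell from resting to control: Coq3 by 2.26 ± 0.32 (adjusted p = 0.00109) and Coq10a by 1.71 ± 0.39 (adjusted p = 0.00837), against Coq10b, with a log2 difference of -1.56 ± 0.26 (adjusted p = 0.00200). These are 15.4% higher and 7.69% lower, beside the same 15.5% and 15.8%, and all 3 calls held under the 19 other settings. Coq3 was also higher with TEPP-46 than in resting cells, by 1.53 ± 0.32 (adjusted p = 0.0163, edgeR). That is 7.69% of the list, beside 6.37% of all genes, and the call held under 17 of 19 other settings.

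Of 8 tested regulators of nuclear subunit genes, Pprc1 rose on activation by 0.80 ± 0.28 (adjusted p = 0.0485) and fell by 1.34 ± 0.28 with TEPP-46 against control (adjusted p = 0.0137). The transcription factor gene Nrf1 fell by 0.68 ± 0.22 (adjusted p = 0.0391) and the GABP subunit gene Gabpb2 by 0.95 ± 0.32 (adjusted p = 0.0465) from resting to control. Over all genes tested, 15.5% were called higher and 15.8% lower, against 1 and 2 of these 8. In TEPP-46 against control, 12.5% of the 8 were called lower and 0% higher, beside 6.43% and 9.72% of all genes. The first call of Pprc1 was lost without resting replicate 1 or 5, any 1 control library or TEPP-46 replicate 5, with an adjusted p of at most 0.137, and its second without any 1 control library or TEPP-46 replicate 5 (up to 0.0606). That of Nrf1 was lost without any 1 control library and without resting replicate 4 or 5 (up to 0.136). That of Gabpb2 was lost without any 1 of the 6 libraries compared or TEPP-46 replicate 5 (up to 0.148). Both were also lost with total counts as the only scaling and under a replicate block. The Nrf1 call was lost with every gene tested, and the Gabpb2 call with DESeq2's size factors and with a minimum count of 50. Of 5 tested dehydrogenases that also feed ubiquinone, Etfdh rose from resting to control by 1.02 ± 0.31 (adjusted p = 0.0293), and Dhodh was lower with TEPP-46 than in resting cells, by a log2 difference of -1.24 ± 0.29 (adjusted p = 0.0262). Each is 20% of the 5, beside 15.5% of all genes called higher in the first comparison and 3.92% called lower in the second. The call of Etfdh was lost without any 1 control library and without resting replicate 4 or 5 (up to 0.104). That of Dhodh was lost under a replicate block, with only the 2 groups fitted, and without replicate 4 or 5 of resting or control or TEPP-46 replicate 5 (up to 0.104).

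Promoter sequence was read for the nuclear members, since NRF1, the ETS factor GABP and YY1 are the classical regulators of these genes. RefSeq promoters (GRCm38.p6, 250 bases before to 50 after the gene start) matched 69 of the 86. Each was searched on both strands for 1 word per factor. The NRF1 word GCGCATGCG stood in 9 of the 69, against 1.95% of the 27025 genes in the promoter table. The ETS word CCGGAAG stood in 16 (23.2%, against 9.93%) and the YY1 word AAGATGGCG in 7 (10.1%, against 1.64%). The median number of CpG pairs was 19 in members and 8 in all genes. The ETS and YY1 words can share letters where they abut, and no member had matches of different words that shared bases. A match describes letters, not a bound site. The promoters of Cycs (chr6:50566520-50566819, minus strand), Cox6b1 (chr7:30626065-30626364, minus strand) and Cox6b2 (chr7:4753045-4753344, minus strand) are shown 5′ to 3′ along the gene, with the word in capitals. They set the carrier gene and a general subunit beside the low-count isoform called higher in activated cells.
Cycs: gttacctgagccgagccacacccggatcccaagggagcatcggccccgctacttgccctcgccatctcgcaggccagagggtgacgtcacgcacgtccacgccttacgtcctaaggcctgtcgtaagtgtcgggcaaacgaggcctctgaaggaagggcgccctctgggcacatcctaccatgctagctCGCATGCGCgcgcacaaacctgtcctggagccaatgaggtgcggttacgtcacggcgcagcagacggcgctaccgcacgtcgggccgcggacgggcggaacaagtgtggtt
Cox6b1: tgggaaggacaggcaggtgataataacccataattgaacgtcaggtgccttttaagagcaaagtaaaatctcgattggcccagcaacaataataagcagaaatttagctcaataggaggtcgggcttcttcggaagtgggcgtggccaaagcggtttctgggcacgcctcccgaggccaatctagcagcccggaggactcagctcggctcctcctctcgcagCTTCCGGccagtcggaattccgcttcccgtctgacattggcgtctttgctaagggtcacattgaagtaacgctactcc
Cox6b2: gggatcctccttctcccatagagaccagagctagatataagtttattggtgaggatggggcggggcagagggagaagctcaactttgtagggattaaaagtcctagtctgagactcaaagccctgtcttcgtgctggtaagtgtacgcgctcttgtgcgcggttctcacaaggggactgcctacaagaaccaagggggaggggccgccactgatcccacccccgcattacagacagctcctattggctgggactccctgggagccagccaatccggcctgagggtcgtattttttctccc
Cycs holds the NRF1 word on the reverse strand at position -61 from the gene start, Cox6b1 the ETS word on the reverse strand at -28, and Cox6b2 none of the 3. The 3 promoters have 32, 17 and 10 CpG pairs. Among tested members with a promoter, the NRF1 word was found in 1 of the 30 whose control libraries all exceeded the resting ones and in 8 of the other 36, and the ETS word in 4 of 30 and 12 of 36. The YY1 word was found in 4 of 30 and 3 of 36. This split uses measured values and is given without a test.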

How the data were processed

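The authors deposited 1 table of raw read counts per gene for 9 libraries; per the labels' protocols, total RNA was made into libraries with a low-input kit. The submitters' processing notes list the GRCm38 build and DESeq2. The sources used here do not give the aligner, the counter, strand use or the handling of reads with several places. Gene IDs were paired with GENCODE M21 symbols for 47224 of 47937 genes. The members and gene lists were chosen with earlier results of these data known.

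From the deposited counts, edgeR 4.0.16 (R 4.3.3) fitted all 9 libraries by group with its quasi-likelihood test, TMM scaling and filterByExpr (minimum count 10, minimum total 15), with two-sided p-values, Benjamini-Hochberg adjustment over 12536 genes and a threshold of 0.05. The fit had 6 residual degrees of freedom and a biological coefficient of variation of 0.33. A value after ± beside a log2 difference is a standard error. Groups do not overlap where every library of one group exceeds every library of the other. Copies were sought with blastn 2.17.0 in all M21 transcripts. Totals of 2397304 to 5030643 counts put the level of 3 counts at 0.596 to 1.25 CPM before TMM scaling. Named were all mitochondrial members, up to 6 called nuclear members per complex and comparison, the most abundant per kb, isoform pairs, the largest changes, and up to 4 genes of each other list. Deviations from the group mean in same-numbered libraries correlated at 0.058, 0.036 and 0.087 in TEPP-46 against control. The correlations were 0.068, 0.089 and -0.026 in control against resting and -0.106, -0.09 and -0.123 in TEPP-46 against resting. With 3 libraries a group these values cannot show whether the numbers pair the libraries, and the main fit used no block. DESeq2 1.42.0, limma-voom 3.58.1, other scalings and filters, the block and each library left out were tried. The fits were tested on simulated data.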

Additional observations from a re-analysis of the deposited data

How the results depend on the processing

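Counts of called members moved with the settings, and the causes were not tested. For nuclear members in control against resting cells, 6 became 10 with total counts as the only scaling, 20 with only the 2 groups fitted, and 1 to 13 with a library left out. Over all genes, calls moved as well, from 3914 to 3835 with total counts and 5739 with only the 2 groups. With a library left out they ran from 2316 to 5194. In TEPP-46 against control, 1 became 6 with total counts, 3 with every gene tested, 3 with a minimum count of 50, 4 with DESeq2, 3 with limma-voom and 4 with resting replicate 1 and TEPP-46 replicate 4 both left out, an alternative chosen after seeing the data. With 1 library left out the range was 0 to 28. Calls over all genes went from 2025 to 2104, 2548, 1812, 2823, 2131 and 2758 under those settings in order. With 1 library left out they ran from 395 to 4407. In TEPP-46 against resting, 1 became 0 with the minimum of 50, with only the 2 groups and with limma-voom, and 0 to 5 with a library left out. Calls over all genes went from 1289 to 1057, 400 and 1088, and to 426 to 1897 with a library left out. For mitochondrial members, the control against resting count of 4 ranged from 1 (without control replicate 4 or 5) to 5 with a library left out. The TEPP-46 against control count of 1 became 2 with every gene tested, with DESeq2 and with limma-voom, and 0 to 2 with a library left out. The TEPP-46 against resting count of 1 became 0 with DESeq2's size factors, total counts, the minimum of 50 and only the 2 groups, and 0 to 1 with a library left out. The log2 ratio of mitochondrial to nuclear counts in control against resting cells, -0.82, became -0.10 without the most abundant member of each genome, -1.42 without mitochondrial genes that have a nuclear copy and -1.40 without mt-Co1, which was also chosen after seeing the data. None of the 50 genes rerun under the alternatives, which include every called member, reversed its direction while called.

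With the replicate number as a block, 3 nuclear and 4 mitochondrial members were called in control against resting. In TEPP-46 against control and in TEPP-46 against resting, 0 and 0 were called. Over all genes, the block left 3339, 1384 and 705 calls in the 3 comparisons in that order. Whether the numbers pair the libraries is not known.

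Total counts as the only scaling moved the median of all genes from -0.04 to 0.07 in control against resting and from 0.04 to -0.09 in TEPP-46 against control, and the share of calls that were higher from 49.5% to 58.2% and from 60.2% to 43.8%. The nuclear medians became 0.33 and -0.34. The 7 nuclear members and 6 mitochondrial genes with few counts were not tested, so their differences are not known at this depth.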
